A study of Mus musculus with 24 samples.

Results

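Complement and coagulation factors are the defence and clotting proteins of blood plasma, and hepatocytes secrete most of them. The 40 genes described here were chosen by gene symbol from a list of complement components, clotting factors and their inhibitors, and they are 40 of the 55421 genes in the count table. All 40 passed the filter on low counts, beside 13583 genes tested in all. By class, 16 are complement components, 13 are procoagulant factors and 11 are inhibitors or fibrinolysis genes.

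RNA sequencing was performed on hepatocytes isolated from 24 male mice, 6 separate mice in each of 4 groups. Young mice on normal diet (young ND) and young mice on high fat diet (young HFD) were C57BL/6N and 6 months old per the labels. Old mice on normal diet (old ND) and on high fat diet (old HFD) were C57BL/6J and 24 months old. The diets lasted 9 weeks, and the high fat diet, TestDiet 58y1, drew 60% of its energy from fat. The labels name a Teklad chow as the normal diet, whereas the methods of the study name a low fat diet of the same maker as the high fat diet and C57BL/6 without a substrain, and the ages in the text of the study differ from the labels and among themselves. Age and substrain changed together, so they cannot be told apart, and every difference called an age difference below is also a difference between substrains. Hepatocytes were released by collagenase perfusion, cleaned on a Percoll gradient and sequenced from polyA RNA in 2 batches, with 3 mice of each group in each batch except old ND, which had 2 in batch 1 and 4 in batch 2.

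In the classical pathway the proteases C1r and C1s cleave C4 and C2, and in the lectin pathway mannose-binding lectins and their MASP proteases do the same. Both routes, and the alternative pathway through factor B, cleave C3 and then C5, after which C6, C7, C8 and C9 join C5b in the membrane attack complex. In coagulation, the contact factors and the vitamin K dependent proteases activate one another until thrombin turns fibrinogen into fibrin, while antithrombin, protein C and protein S hold the cascade back and plasmin dissolves the clot. Many of these genes are acute phase genes of the liver, driven by interleukin signals through STAT3 and C/EBP factors.

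The promoters of 5 of the genes are printed because these genes recur in the results below: C6 and C8b, which were lower on HFD in young mice, and the fibrinogen chains Fga, Fgb and Fgg, which moved together in single mice. Each line holds 250 bases before to 50 bases after the transcription start in RefSeq (GRCm38.p6), 5′ to 3′ on the strand of the gene. Capitals mark the letters of 3 motifs searched on both strands. For C/EBP factors it was TTGCNNAA. For STAT factors it was TTCNNNGAA. The TATA box was TATAAA. Matches of different motifs were counted separately where they overlapped. The C6 window is chr15:4726960-4727259 on the plus strand, and that of C8b is chr4:104766067-104766366 on the plus strand. For Fga it is chr3:83025903-83026202 on the plus strand, for Fgb chr3:83049814-83050113 on the minus strand and for Fgg chr3:83007474-83007773 on the plus strand.
C6: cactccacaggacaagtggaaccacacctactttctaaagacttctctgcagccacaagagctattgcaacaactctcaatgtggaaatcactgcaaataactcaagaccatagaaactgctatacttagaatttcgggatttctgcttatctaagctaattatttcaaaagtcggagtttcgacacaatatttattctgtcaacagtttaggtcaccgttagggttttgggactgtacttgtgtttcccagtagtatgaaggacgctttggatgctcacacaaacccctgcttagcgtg
C8b: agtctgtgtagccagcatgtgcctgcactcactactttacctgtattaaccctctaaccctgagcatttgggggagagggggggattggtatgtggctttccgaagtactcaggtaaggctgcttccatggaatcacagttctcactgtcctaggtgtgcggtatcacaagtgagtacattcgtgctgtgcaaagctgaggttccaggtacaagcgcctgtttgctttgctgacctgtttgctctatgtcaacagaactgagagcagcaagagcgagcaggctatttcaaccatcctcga
Fga: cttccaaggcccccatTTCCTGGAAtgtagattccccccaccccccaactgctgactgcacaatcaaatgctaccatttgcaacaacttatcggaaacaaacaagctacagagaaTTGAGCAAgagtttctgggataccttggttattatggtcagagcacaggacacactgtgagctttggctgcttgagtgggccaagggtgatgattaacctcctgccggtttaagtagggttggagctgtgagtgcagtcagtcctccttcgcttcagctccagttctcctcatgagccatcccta
Fgb: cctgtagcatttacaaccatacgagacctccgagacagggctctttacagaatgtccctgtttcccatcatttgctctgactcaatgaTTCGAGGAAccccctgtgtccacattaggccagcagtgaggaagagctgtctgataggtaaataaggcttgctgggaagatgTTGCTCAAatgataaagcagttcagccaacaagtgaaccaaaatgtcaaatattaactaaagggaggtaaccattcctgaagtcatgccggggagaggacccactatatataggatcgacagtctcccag
Fgg: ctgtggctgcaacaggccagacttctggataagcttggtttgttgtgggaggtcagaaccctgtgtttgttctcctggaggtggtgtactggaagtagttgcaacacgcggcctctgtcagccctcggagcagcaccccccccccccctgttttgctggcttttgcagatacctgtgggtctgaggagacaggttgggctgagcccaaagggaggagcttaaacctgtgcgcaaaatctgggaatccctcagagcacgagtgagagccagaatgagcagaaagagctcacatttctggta

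Fga and Fgb each held a C/EBP and a STAT match. In Fga they stood 135 and 234 bases before the transcription start, and in Fgb 80 and 162 bases before it. The C6, C8b and Fgg windows held none of the 3 motifs. Windows were given for 31 of the 40 genes, and those of C2, C4b, Cfb, Cfi, Masp1, Plg, Kng1, Serping1 and Proc were not analysed here. A C/EBP match stood in 11 of the 31 genes (35.5%), beside 10.8% of all 32851 promoter windows in the table. A STAT match stood in 7 genes (22.6%, beside 8.30%) and a TATA box in 3 (9.68%, beside 13.6%). A gene could have more than 1 window, and these matches are a description of letters in the window.

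Several of the genes lie side by side in the genome (mm10). The fibrinogen genes form a cluster on chromosome 3, in which Fgg and Fga are 11 kb apart and Fga and Fgb 6.51 kb apart. C8b (chr4:104766317-104804548, plus strand) and C8a (chr4:104815679-104876398, minus strand), which encode chains of C8, are 11.1 kb apart. F7, F10 and Proz follow one another on chromosome 8 with gaps of 1.5 and 4.24 kb, and F11 and Klkb1 are 4.66 kb apart on the same chromosome. On chromosome 17, Cfb and C2 are 85 bases apart, and C4b lies 112 kb from Cfb. C6 lies at chr15:4727175-4814967 on the plus strand.

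Exons of 10 of the 40 genes overlapped exons of another annotated gene, and 7 did so over more than 10% of their exon length. These were Cfb (79.5%), Masp2 (54.9%), C2 (46.9%), Klkb1 (43.2%), Serpinc1 (34.4%), C1s1 (18.4%) and Plg (11.3%). Whether the counting used strand is not given in the sources used here, so the levels of these 7 genes are less certain. The overlapping gene was itself counted highest for Masp2, where Tardbp on the opposite strand had 706 to 1939 counts in a mouse. The read-through gene over Cfb and C2 and the genes over Klkb1 and C1s1 had 0 to 2 counts.

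Sequencing gave 9200332 to 22185069 counts per mouse. The labelled cell type was checked with 8 hepatocyte markers, none of which was at 0 in any group, and whose summed level ranged from 48013 to 163368 CPM (counts relative to the library total, scaled by the TMM method) over all mice. Alb, which encodes albumin, had medians of 93567 CPM (ND) and 83498 CPM (HFD) in young mice and of 96139 CPM (ND) and 58600 CPM (HFD) in old mice. The sum of 11 Kupffer cell markers ranged from 1.95 to 88.1 CPM (ND) and 16.3 to 229 CPM (HFD) in young mice, and from 58.0 to 1448 CPM (ND) and 72.7 to 737 CPM (HFD) in old mice. Medians of the Kupffer cell gene Clec4f were 5.46, 20.8, 22.6 and 21.5 CPM in the same order, those of the endothelial gene Stab2 11.2, 23.7, 21.4 and 22.5 CPM, and those of the leukocyte gene Ptprc 0.772, 3.82, 6.35 and 5.98 CPM. In young ND the batches did not overlap, with Kupffer sums of 1.95 to 5.10 CPM in batch 1 and 50.8 to 88.1 CPM in batch 2, and the same held for the endothelial sums (15.7 to 35.7 and 102 to 156 CPM) and the stellate cell sums (8.18 to 21.5 and 63.0 to 91.9 CPM). Among old mice the highest Kupffer sums were those of old ND mice 4 and 3 (1448 and 958 CPM) and old HFD mice 6 and 4 (737 and 567 CPM), all of batch 2. The part of these sums in the values of the 40 genes was not tested. In neutrophil markers, old ND mouse 4 and old HFD mouse 2 stood apart. Old ND mouse 4 had the lowest hepatocyte sum and the highest neutrophil marker sum (55.5 CPM), and old HFD mouse 2 had the highest neutrophil sum of its group (43.8 CPM). A number of values are also given without these 2 mice, a comparison added after their values were seen. In bulk RNA, fewer cells of a type and less RNA per cell cannot be told apart.

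The 40 genes drew 4.16% ± 0.165 (SD, n = 6) of the counts of a young ND mouse together, against 3.75% ± 0.319 of those of a young HFD mouse. The share was 4.80% ± 0.812 among old ND mice and 3.90% ± 0.431 among old HFD mice. The 3 fibrinogen chains alone took 1.36% (ND) and 1.12% (HFD) in young mice and 1.78% (ND) and 1.19% (HFD) in old mice on average. The old ND average held mouse 4, in which the chains took 2.91%, and mouse 2, in which they took 2.14%, whereas in the other 4 mice they took 1.31% to 1.46%. The inhibitor and fibrinolysis genes kept nearly the same mean share in all 4 groups, from 0.872% in young HFD to 0.886% in old ND.

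Between genes, levels were compared per kilobase of exon, since the deposited FPKM values, which are meant to be scaled by gene length, followed the whole gene span and not the exons. In young ND the highest were Fgg (median 1866 CPM per kilobase), Fga (1803) and Fgb (1325), followed by C3 (1274), the protein on which all complement routes meet. Kng1, which encodes kininogen, had a median of 664 CPM per kilobase, Plg (plasminogen) 543 and F2 (prothrombin) 376. At the other end were C2 (15.1 CPM per kilobase), Masp1 (14.6) and Pros1 (11.8), which encodes protein S. The highest and lowest median levels were 159-fold apart. Of the 39 neighbouring pairs in this order, 32 had overlapping ranges over the 6 mice. The 7 steps without overlap were Fga over Fgb, C3 over Kng1, Kng1 over Plg, Plg over F2, Cfb over Masp2, Masp2 over F11 and F11 over C2. The lengths were those of all exons of a gene, and the place of genes whose exons overlap others depends on that choice. With only the bases shared with no other gene, an alternative added after seeing the data, Cfb went from 48.3 to 236 CPM per kilobase, Masp2 from 37.7 to 83.6, C2 from 15.1 to 28.4, Klkb1 from 58.1 to 102 and Serpinc1 from 255 to 389. The ranges of F11 and C2, and those of Kng1 and Plg, then overlapped, C2, Masp1 and Pros1 were still lowest, and 6 steps had no overlap. The order of all 40 genes was much alike in the other groups, with Spearman's rho against young ND of 0.981 for young HFD, 0.988 for old ND and 0.973 for old HFD. These values are across genes, which share the libraries, and are a description.

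**Figure D1:**
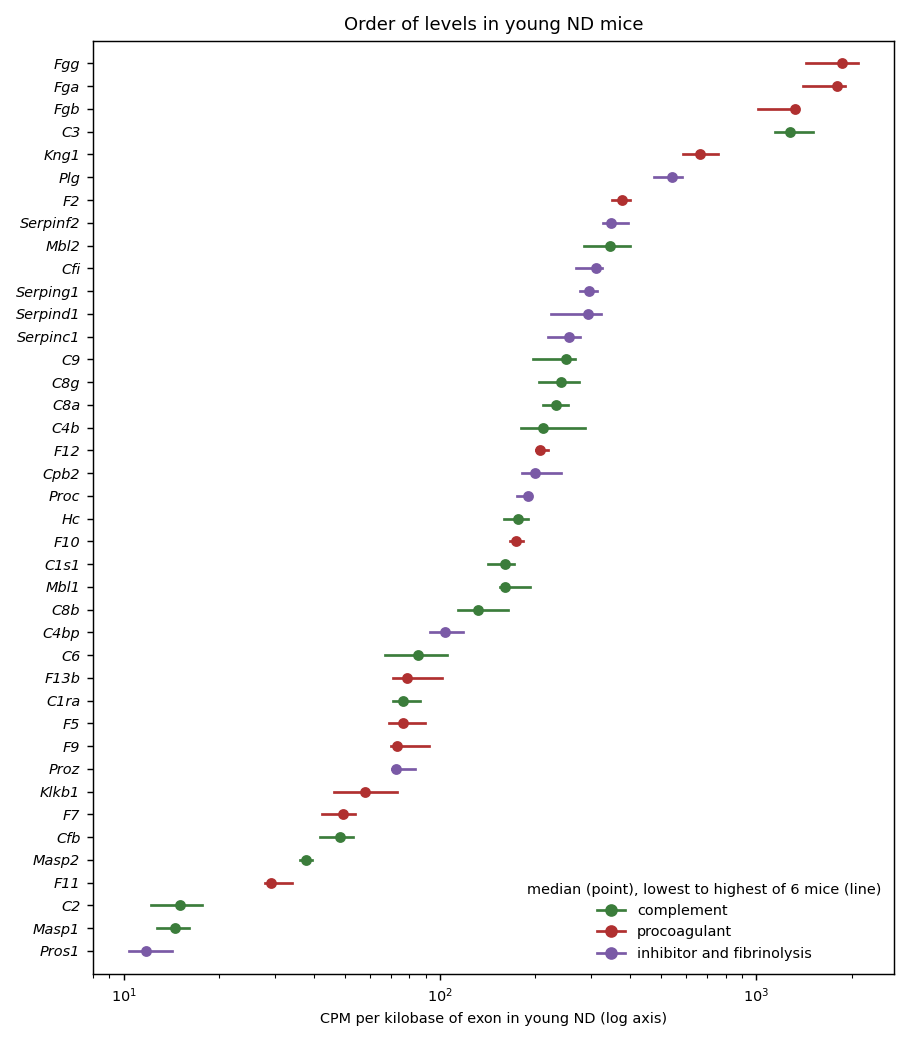
Levels of the 40 genes in young ND mice, on a log axis in CPM per kilobase of exon. Points are the median and lines run from the lowest to the highest of the 6 mice, coloured by class. Fibrinogen and C3 stand above all others, and C2, Masp1 and Pros1 are lowest.

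The median SD of log2 CPM was 0.13 over the 40 genes for young ND mice, 0.19 for young HFD, 0.26 for old ND and 0.32 for old HFD, beside 0.24, 0.29, 0.34 and 0.54 over all genes tested, a comparison that does not allow for the level of the genes. The widest single values were 0.26 for C4b in young ND, 0.58 for C6 in young HFD and 0.58 for Fga in old ND. Complement genes had the widest spread of the 3 classes in old HFD, with a median SD of 0.43, and C6 had the largest SD of all 40 genes in that group at 0.88. Old HFD mouse 2 was the lowest of its group for many of the genes, among them C6, C8b, C8a, Hc, C3, C4b, Fga, F5, F7, F11, F12, Masp1, Masp2, Proz and Kng1. The same mouse was the highest for Cfb (323 CPM), Mbl2 (1038 CPM), Mbl1 and Proc. Old ND mouse 4 was the highest of its group for the fibrinogen chains, C3, C4b, C4bp, C6, Pros1, Cpb2, Masp1, Mbl1 and Serping1, and the lowest for Serpinc1, Serpind1, Proc, Proz, Cfi, F2, F11, F12, F13b, Klkb1, C1ra, C1s1, C8g, Mbl2 and Masp2.

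**Figure D2:**
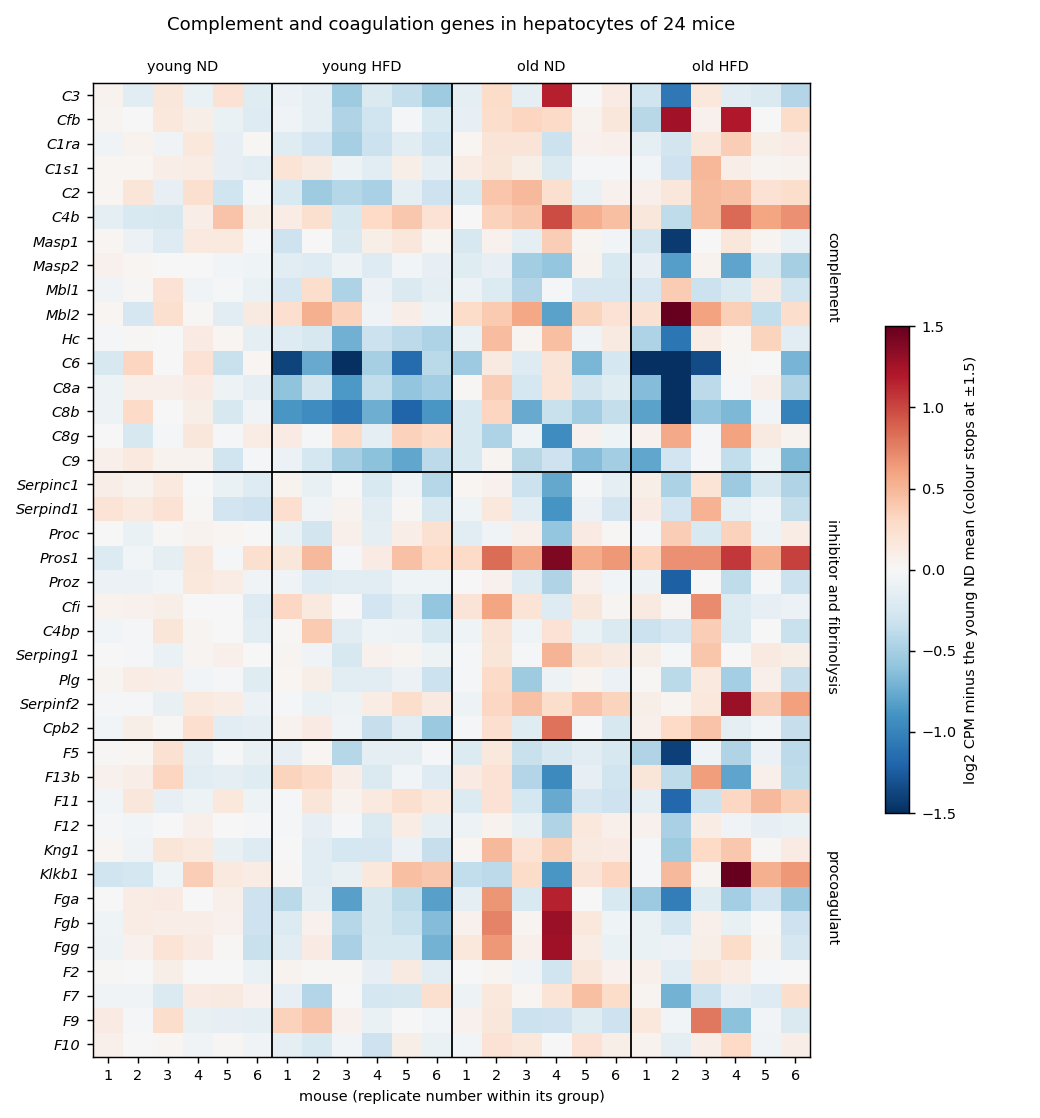
Log2 CPM of each gene (row) in each mouse (column) minus the mean of the young ND mice, with colour limited to ±1.5. C6 and C8b are blue in all 6 young HFD mice, Pros1 is red in all old mice, and old ND mouse 4 and old HFD mouse 2 differ from the rest of their groups in many rows.

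The first comparison asked what the high fat diet changed in young mice. C6 and C8b, both needed for the membrane attack complex, fell to about the same extent, and none of the other 38 genes passed the test. These 2 genes are 5% of the 40, and 3.5% of all genes tested were called in either direction (1.91% higher and 1.59% lower). C8b encodes the beta chain of C8, which binds C5b, C6 and C7 at the membrane.

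C8b had a lowest, median and highest level of 291, 336 and 419 CPM in young ND and of 149, 183 and 207 CPM in young HFD. Every young HFD mouse was below every young ND mouse. The log2 fold change was -0.95 (SE 0.22, 95% interval -1.4 to -0.50, adjusted p = 0.0195, edgeR quasi-likelihood test), a level that fell by 48.2%. Within batches it was -1.04 and -0.83. The adjusted p was 0.0560 without young ND mouse 2 and 0.0628 without young HFD mouse 5.

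C6, whose product carries C5b to C7 and C8, ranged from 238 to 373 CPM in young ND (median 302) and from 79.8 to 227 CPM in young HFD (median 156). Here too the groups did not overlap. The log2 fold change was -1.0 (SE 0.27, 95% interval -1.57 to -0.44, adjusted p = 0.0406), a level that fell by 50.1%, and it was -1.32 in batch 1 and -0.61 in batch 2. The call was lost, with adjusted p from 0.0514 to 0.11, on leaving out any of young ND mice 1, 2, 3, 4 or 6, young HFD mice 1, 3, 5 or 6, or old HFD mouse 3.

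The other terminal genes gave smaller values that did not pass over all 24 mice. Log2 fold changes were -0.53 for C8a (adjusted p = 0.0991, and -0.49 with adjusted p = 0.0251 without the 2 outlying mice), -0.43 for C9, which forms the pore (adjusted p = 0.0699), and -0.38 for Hc, which encodes C5 (adjusted p = 0.188). C8g, the gamma chain of C8, was at 0.15 (adjusted p = 0.614). For C8a, no young HFD mouse (464 to 695 CPM) reached the lowest young ND mouse (767 CPM). Hc had the same separation, with 668 to 957 CPM in young HFD against 996 to 1191 CPM in young ND. Over the 6 terminal genes the median log2 fold change was -0.48, with 5 of 6 below 0, beside 0.01 over all genes tested.

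In total 5 of the 40 genes did not overlap between young ND and young HFD, and all 5 were lower on HFD: C6, C8a, C8b, Hc and C1ra. Among all genes tested, 3.06% separated in that direction. With only the 12 young mice in the fit, which also changed the scaling and left 12353 genes past the filter, 8 genes were called lower (C8b, C6, C8a, C9, Hc, C2, C1ra and Fga) and none higher, where 8.27% of all genes tested were called lower and 10.4% higher. At an unadjusted p under 0.05 in the fit of all mice, 8 genes were lower and none higher, beside 21.2% of all genes in either direction. Markers of other cell types moved in the same comparison. Higher in young HFD than in young ND were 1 of 11 Kupffer cell, 2 of 10 endothelial and 2 of 9 stellate cell markers, and at an unadjusted p under 0.05 all 11, all 10 and 7 of 9. On leaving out 1 mouse these counts ranged from 0 to 5, 0 to 8 and 0 to 3, and without both outlying mice they were 5, 10 and 5, where 6.9% of all genes tested were called higher. The summed endothelial markers ranged from 15.7 to 156 CPM in young ND and from 45.3 to 356 CPM in young HFD, and the stellate cell markers from 8.18 to 91.9 CPM and from 23.1 to 274 CPM. Their part in the lower terminal genes was not tested.

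Upstream of the terminal genes, no complement gene passed the test. C2, which supplies the protease of the classical C3 convertase, had 47.3, 58.3 and 68.6 CPM (lowest, median and highest) in young ND and 40.2, 45.0 and 53.0 CPM in young HFD, and 4 of 6 young HFD mice lay below all young ND mice. Its log2 fold change was -0.36 (adjusted p = 0.0977), and that of C1ra, which encodes C1r, was -0.29 (adjusted p = 0.123). C1s1 (C1s), C4b, Mbl1, Mbl2, Masp1 and Masp2 lay between -0.14 and 0.18. Masp1 ranged from 125 to 158 CPM in young ND and from 116 to 161 CPM in young HFD, and these ranges nearly coincided. C3 had 5876, 6551 and 7751 CPM in young ND and 4586, 5470 and 6266 CPM in young HFD, a log2 difference of -0.31 (adjusted p = 0.432) with 4 of 6 young HFD mice below all young ND mice. Cfb, which encodes factor B, was at -0.20 (adjusted p = 0.648).

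The clotting genes held to a narrow range in young mice. No procoagulant gene and no inhibitor or fibrinolysis gene passed the test, and the median log2 fold changes of the classes were -0.12 and -0.04. The 3 fibrinogen chains had the largest values, -0.45 for Fga (adjusted p = 0.228), -0.29 for Fgb and -0.27 for Fgg. Fga had 4235, 5428 and 5743 CPM in young ND and 2988, 4012 and 4797 CPM in young HFD, Fgb 3868, 5049 and 5148 against 3055, 3908 and 4989 CPM, and Fgg 3005, 3905 and 4386 against 2320, 3241 and 4143 CPM. The groups overlapped for all 3 chains. F2, F7, F9 and F10, the vitamin K dependent proteases, lay between -0.12 and 0.12. For F2 the medians were 1726 CPM in young ND and 1743 CPM in young HFD, and the ranges of the groups overlapped almost wholly.

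**Figure D3:**
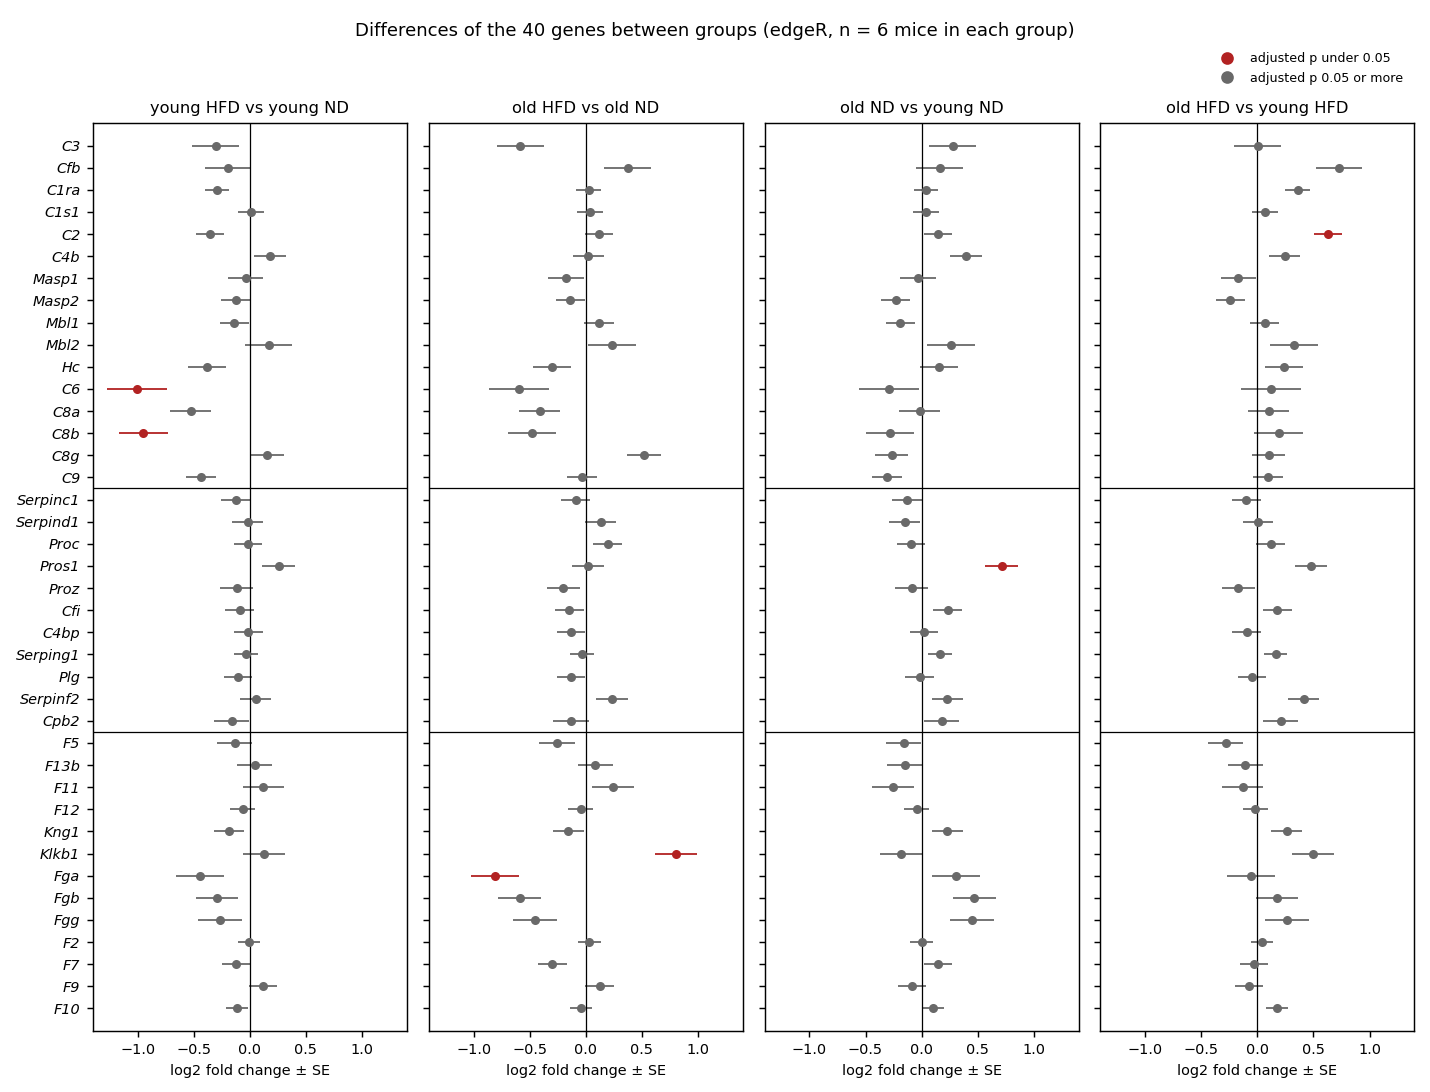
Log2 fold change ± SE of each gene in 4 comparisons, from the edgeR fit on all 24 mice with 6 mice in each group. Red points passed an adjusted p of 0.05: C6 and C8b for young HFD against young ND, Klkb1 and Fga for old HFD against old ND, Pros1 for old ND against young ND, and C2 for old HFD against young HFD.

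In old mice, the high fat diet went with 2 calls of opposite direction, where 3.01% of all genes tested were called (1.37% higher and 1.64% lower). Klkb1, which encodes plasma prekallikrein of the contact system, rose, and Fga, the alpha chain of fibrinogen, fell. Both calls were lost on leaving out some single mice. Over the 24 fits that each left out 1 mouse, the log2 fold change ranged from 0.57 to 0.90 for Klkb1 and from -0.90 to -0.53 for Fga.

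Klkb1 had 163, 287 and 374 CPM (lowest, median and highest) in old ND and 296, 426 and 944 CPM in old HFD. The highest value was that of old HFD mouse 4 and the lowest that of old ND mouse 4, and 4 of 6 old HFD mice lay above all old ND mice. The log2 fold change was 0.80 (SE 0.19, 95% interval 0.41 to 1.2, adjusted p = 0.0232), with 0.52 in batch 1 and 1.01 in batch 2. Without both old ND mouse 4 and old HFD mouse 2 it was 0.67 (adjusted p = 0.0389). The adjusted p was 0.0508 without old ND mouse 1 and 0.0600 without old ND mouse 2, and with only the 12 old mice in the fit it was 0.298. The other contact genes did not pass, with values of 0.24 for F11, -0.04 for F12 and -0.15 for Kng1. F11, the neighbour of Klkb1, was at -0.54 in batch 1 and 0.78 in batch 2.

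Fga had 4477, 5025 and 11724 CPM in old ND and 2556, 3659 and 4628 CPM in old HFD. Old ND mouse 4 had the 11724 CPM and old ND mouse 2 had 8367 CPM, whereas the other 4 old ND mice lay between 4477 and 5270 CPM, and 5 of 6 old HFD mice lay below all of them. The log2 fold change was -0.81 (SE 0.22, 95% interval -1.26 to -0.35, adjusted p = 0.0408), with -0.91 and -0.73 within batches. It was -0.53 without old ND mouse 4 (adjusted p = 0.0810), -0.72 without old HFD mouse 2 (adjusted p = 0.0781) and -0.43 without both (adjusted p = 0.141). The call was also lost, with adjusted p from 0.0508 to 0.138, without old ND mice 1 or 2, old HFD mice 4 or 6, young ND mice 1 to 4 or young HFD mice 1 or 5.

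Fgb and Fgg followed the same mice. Fgb had 4567, 5157 and 11690 CPM in old ND and 3844, 4435 and 5052 CPM in old HFD, a log2 difference of -0.59 (adjusted p = 0.0797) that was -0.32 without old ND mouse 4 (adjusted p = 0.175). Fgg had 3538, 4172 and 9164 CPM in old ND and 3184, 3732 and 4586 CPM in old HFD, a difference of -0.45 (adjusted p = 0.175) that was -0.18 without that mouse. Without both outlying mice the values were -0.27 for Fgb and -0.15 for Fgg. The highest value of each chain in old ND was in mouse 4. C3 was also highest there, with 6021, 6948 and 14986 CPM in old ND and 3168, 5549 and 7440 CPM in old HFD. Its difference was -0.58 (adjusted p = 0.11), -0.31 without old ND mouse 4 and -0.19 without both outlying mice, and 5 of 6 old HFD mice lay below all old ND mice.

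C6, C8b and C8a of old mice split by batch. C6 was at 99.4, 67.7 and 118 CPM in the old HFD mice of batch 1 and at 303, 301 and 184 CPM in those of batch 2. Against old ND its log2 fold change was -0.59 (adjusted p = 0.193), composed of -1.53 in batch 1 and 0.03 in batch 2. C8b (-0.48, adjusted p = 0.191) and C8a (-0.41, adjusted p = 0.189) had the same split, with -1.14 and -1.02 in batch 1 and -0.02 and 0.02 in batch 2. Batch 1 held only 2 old ND mice, and it held old HFD mouse 2, the lowest old HFD mouse for all 3 genes. Without both outlying mice the fold changes were -0.36 for C6, -0.29 for C8b and -0.19 for C8a. Hc was at -0.30 (adjusted p = 0.294), with -0.65 in batch 1 and -0.06 in batch 2, and at -0.10 without these mice. C9 was at -0.03, with -0.29 in batch 1 and 0.14 in batch 2. C8g stood opposite to its partner chains at 0.52 (adjusted p = 0.0560), with 190, 328 and 378 CPM in old ND and 356, 389 and 551 CPM in old HFD, and 4 of 6 old HFD mice lay above all old ND mice. It was at 0.35 without the outlying mice. The 40 genes had a median log2 fold change of -0.04 in old mice, beside -0.01 over all genes tested, with 23 of 40 below 0.

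**Figure D4:**
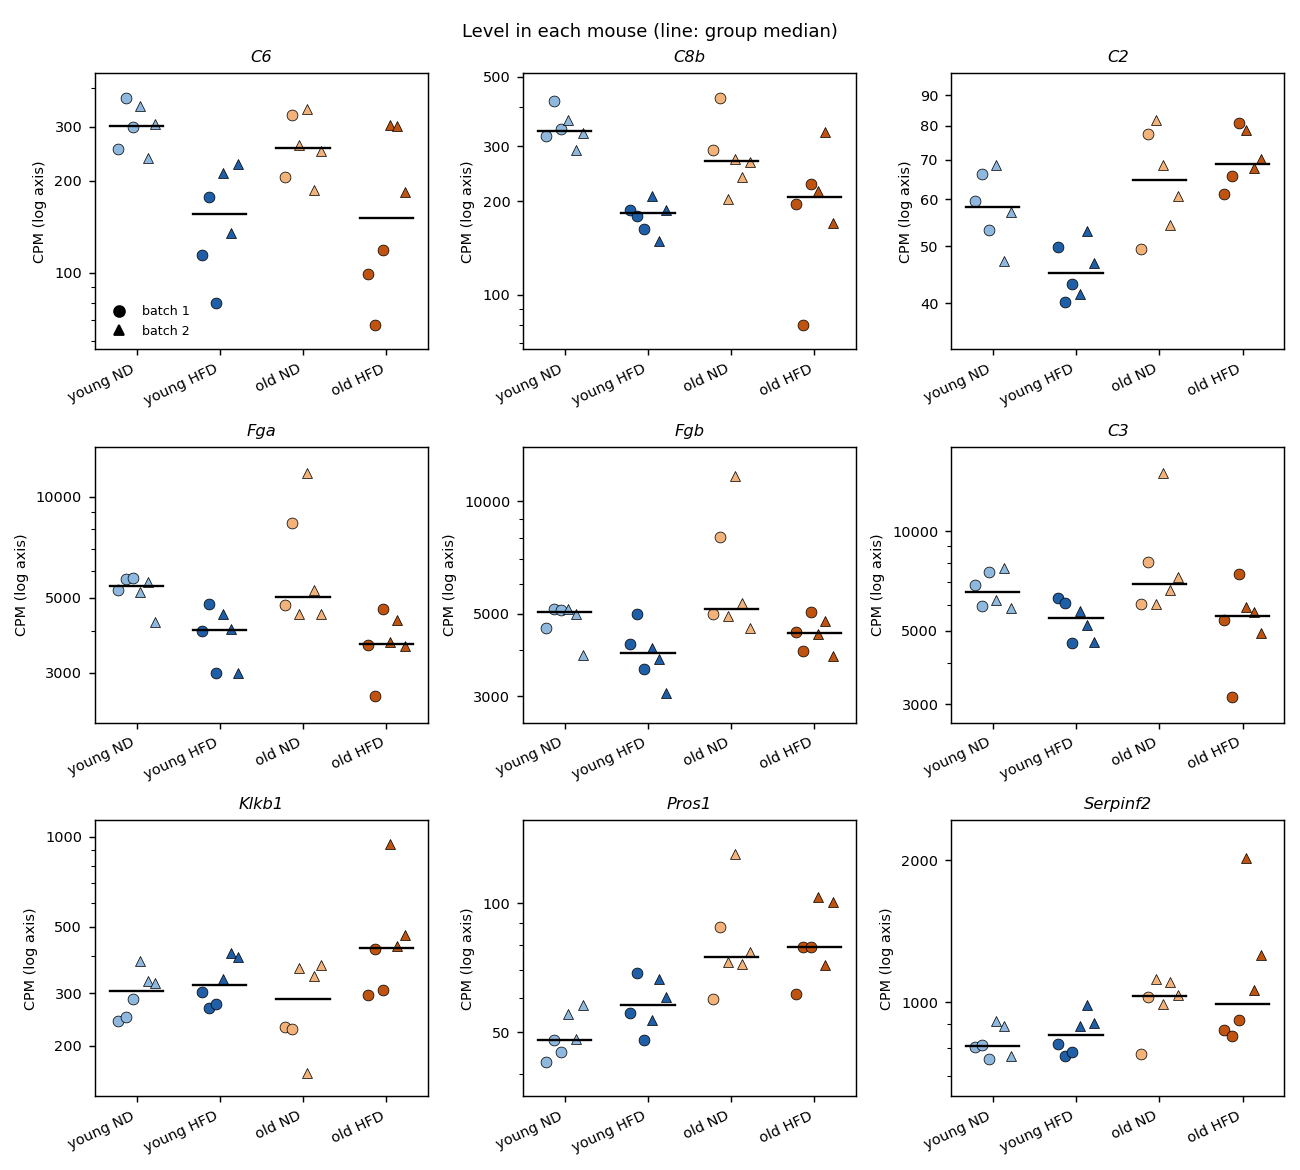
CPM of 9 of the genes in each mouse (log axis), by group, with circles for batch 1, triangles for batch 2 and a line at the group median. C6 and C8b of young HFD lie below all young ND mice, Fga, Fgb and C3 are highest in old ND mouse 4, and Pros1 is higher in all old mice than in any young ND mouse.

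On normal diet, old and young mice differed in 1 of the 40 genes, Pros1, where 8.5% of all genes tested were called (7.26% higher in old mice). Protein S, the product of Pros1, is the cofactor of activated protein C and also binds C4b-binding protein. Pros1 had 42.6, 48.1 and 58.0 CPM (lowest, median and highest) in young ND and 60.0, 74.9 and 130 CPM in old ND. All 6 old ND mice lay above all 6 young ND mice, as 2.08% of all genes tested did.

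Its log2 fold change was 0.71 (SE 0.15, 95% interval 0.41 to 1.02, adjusted p = 0.00471), with 0.73 in batch 1 and 0.70 in batch 2. Old ND mouse 4 was again the highest, and without it and old HFD mouse 2 the value was 0.58 (adjusted p = 0.0109). The call held on leaving out each of the 24 mice in turn. On high fat diet the difference between old and young mice was 0.48 (adjusted p = 0.0764), with 48.1, 57.9 and 68.9 CPM in young HFD and 61.4, 79.1 and 103 CPM in old HFD. All 11 Kupffer cell markers, 8 of 10 endothelial markers and 8 of 9 stellate cell markers were also called higher in old mice on normal diet. Without the 2 outlying mice, 10 of 11 Kupffer cell, 1 of 10 endothelial and 4 of 9 stellate cell markers were called, beside 5.03% of all genes. Their part in the Pros1 difference was not tested.

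The remaining genes differed less between old ND and young ND. The largest values short of the threshold were 0.47 for Fgb (adjusted p = 0.137), 0.45 for Fgg (adjusted p = 0.169), 0.39 for C4b (adjusted p = 0.0871) and -0.31 for C9 (adjusted p = 0.169). Fgb was at 0.24 and Fgg at 0.22 without the 2 outlying mice. Fibrinogen in old ND was highest in mouse 4 and next highest in mouse 2, as described above. Proc (protein C) was at -0.09, Serpinc1 (antithrombin) at -0.13, Serpind1 (heparin cofactor II) at -0.15 and Proz (protein Z) at -0.09, so that among the 5 anticoagulant genes Pros1 alone was above 0. Over the 40 genes the median log2 fold change was 0.01, the same as over all genes tested. At an unadjusted p under 0.05, 4 genes were higher and 1 lower, beside 22.2% of all genes in either direction.

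On high fat diet, old and young mice differed in C2 alone of the 40 genes, where 2.24% of all genes tested were called (1.82% higher in old mice). C2 had 40.2, 45.0 and 53.0 CPM in young HFD and 61.4, 69.0 and 80.7 CPM in old HFD. All 6 old HFD mice lay above all 6 young HFD mice, a separation that 0.552% of all genes tested had. The log2 fold change was 0.63 (SE 0.12, 95% interval 0.37 to 0.89, adjusted p = 0.0135), with 0.61 and 0.60 within batches. Without both outlying mice it was 0.65 (adjusted p = 0.0184). The adjusted p was 0.0532 without young HFD mouse 4.

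Cfb, the neighbour of C2, encodes the matching protease of the alternative pathway and was at 0.73 between old HFD and young HFD (adjusted p = 0.0590). It had 98.6, 119 and 131 CPM in young HFD and 101, 152 and 323 CPM in old HFD, and the highest value was that of old HFD mouse 2. Without the 2 outlying mice Cfb was at 0.50 (adjusted p = 0.161). C1ra was at 0.36 (adjusted p = 0.0795), and at 0.42 without the 2 outlying mice (adjusted p = 0.0228). Serpinf2 (0.41, adjusted p = 0.105) and Klkb1 (0.49, adjusted p = 0.140) did not pass. Of the 16 complement genes, 14 were above 0 with a median log2 fold change of 0.11, and all 6 terminal genes were between 0.09 and 0.23. They lay between 0.01 (C8g) and 0.38 (Hc) without the 2 outlying mice, none of them called. At an unadjusted p under 0.05, 6 of the 40 genes were higher and none lower, beside 21% of all genes in either direction. Of the Kupffer cell markers 0 of 11 were called in this comparison by edgeR, but all 11 were above 0, with a median log2 fold change of 1.09, and 2 were higher at an unadjusted p under 0.05. Of 3 neutrophil markers tested 1 was called higher. Their part in these values was not tested.

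The comparison of old HFD with young ND joins diet, age and substrain, and 30.2% of all genes tested were called in it (17.3% higher and 12.9% lower). Of the 40 genes, 8 were called, which is 20%, with 4 higher and 4 lower. In edgeR, scaling by relative log expression (RLE) gave 5 higher and 3 lower, and scaling by total counts 5 higher and 2 lower. DESeq2 called 6 higher and 4 lower, where it called 34.4% of all genes. The comparison shares its mice with those above and is no separate evidence. Markers of other cell types were also called higher in this comparison, namely 10 of 11 Kupffer cell, 10 of 10 endothelial (4 of 10 without old HFD mouse 6) and 5 of 9 stellate cell markers. Of 8 hepatocyte markers 3 were called lower and 1 higher. The part of these cell types in the values below was not tested.

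Among the genes that were higher, Pros1 rose most, by 0.74 (SE 0.15, 95% interval 0.43 to 1.04, adjusted p = 0.00114), with 0.67 and 0.78 within batches and no overlap between groups, as in 2.99% of all genes tested. Klkb1 rose by 0.62 (adjusted p = 0.0165) from a young ND range of 243 to 385 CPM and a median of 305 CPM, with 0.36 and 0.84 within batches. Serpinf2, which encodes the plasmin inhibitor alpha-2-antiplasmin, had 759, 809 and 912 CPM in young ND and 849, 990 and 2028 CPM in old HFD. It rose by 0.46 (adjusted p = 0.0160), with 0.12 in batch 1 and 0.77 in batch 2, and the highest value was that of old HFD mouse 4. C4b, the complement C4 gene, had 1028, 1204 and 1637 CPM in young ND and 939, 1765 and 2195 CPM in old HFD and rose by 0.42 (adjusted p = 0.0285), with 0.31 and 0.51 within batches. In these genes other than Pros1 the groups overlapped.

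Among the genes that were lower, C8b fell by 0.76 on the log2 scale (adjusted p = 0.0118), with -1.13 and -0.45 within batches. It ranged from 291 to 419 CPM in young ND and from 80.4 to 332 CPM in old HFD, and 5 of 6 old HFD mice lay below all young ND mice. C6 was lower by a similar amount, with a log2 fold change of -0.89 (adjusted p = 0.0174), but -1.72 in batch 1 and -0.17 in batch 2. Without the 2 outlying mice C6 was at -0.67 (adjusted p = 0.0580). Masp2, which cleaves C4 and C2 in the lectin pathway, had 119, 125 and 130 CPM in young ND and 70.3, 97.0 and 129 CPM in old HFD and fell by 0.37 (adjusted p = 0.0338), with -0.31 and -0.45 within batches. F5, the cofactor of factor X, had 514, 568 and 665 CPM in young ND and 215, 426 and 543 CPM in old HFD and fell by 0.42 (adjusted p = 0.0475), with -0.66 and -0.20 within batches. Old HFD mouse 2 had the lowest value of all 4 genes, and in each the groups overlapped.

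Several of these calls lay near the threshold and were lost on leaving out 1 mouse. C8b, C6 and Pros1 were called on leaving out each of the 24 mice in turn. The call of Serpinf2 was lost without young ND mouse 6 (adjusted p = 0.05 after rounding) and that of Klkb1 without old HFD mouse 4 (adjusted p = 0.0513). C4b was lost, with adjusted p from 0.0523 to 0.0681, without old HFD mouse 6 or young ND mice 2, 3, 4 or 6. Masp2 was lost in 9 cases, with adjusted p from 0.0504 to 0.118, namely without young ND mice 1, 2 or 4, young HFD mice 1 or 5, old ND mouse 2, or old HFD mice 2, 4 or 6. F5 was lost in 21 of 24 cases, with adjusted p from 0.0510 to 0.0987, and was called only without young HFD mouse 3, old HFD mouse 3 or old HFD mouse 5. Over the same 24 fits the log2 fold changes ranged from 0.42 to 0.72 for Klkb1, 0.31 to 0.55 for Serpinf2, 0.38 to 0.52 for C4b, -0.43 to -0.27 for Masp2 and -0.48 to -0.27 for F5. Without both outlying mice 5 genes were called, where 30.2% of all genes tested were called in that fit (18.9% higher and 11.3% lower): Pros1 (0.77), C4b (0.56), Serpinf2 (0.55) and Klkb1 (0.62) higher and C8b (-0.55) lower. F5 was then at -0.24.

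Whether the diet acted differently in old and young mice was asked by an interaction term. No gene of 13583 passed with edgeR (0% called, and 9.18% at an unadjusted p under 0.05), and DESeq2 called 4 genes, none of them among the 40. At an unadjusted p under 0.05 stood 3 of the 40 genes: C2 (0.48, adjusted p = 0.531), Klkb1 (0.68, adjusted p = 0.531) and C9 (0.40, adjusted p = 0.537). Thus the calls of C6 and C8b in young mice alone, and of Klkb1 and Fga in old mice alone, were not shown to differ between ages. The intervals of the interaction were wide, from -0.17 to 1.11 for C8b and from -0.37 to 1.2 for C6.

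Genes for which no comparison gave a call, and which have not yet been described, are given here by their range. The complement inhibitors Cfi (factor I), C4bp (C4b-binding protein) and Serping1 (C1 inhibitor) lay between -0.15 and 0.23 in the 4 comparisons of diet and age. Plg and Cpb2, which encodes a carboxypeptidase that slows fibrinolysis, lay between -0.16 and 0.21. F13b, the carrier chain of factor XIII, lay between -0.15 and 0.09, and F12 (factor XII) between -0.07 and -0.02. Mbl2 reached 0.33 between old HFD and young HFD (adjusted p = 0.378), a value of 0.08 without the 2 outlying mice, while between old ND and young ND it went from 0.26 to 0.39 without them (adjusted p = 0.0949). Mbl1 was at -0.19 between old ND and young ND (adjusted p = 0.421). F7 was at -0.30 between old HFD and old ND (adjusted p = 0.166). Masp1, one of the 3 scarcest genes, had 121, 143 and 184 CPM in old ND and 52.8, 138 and 161 CPM in old HFD, the 52.8 CPM being that of old HFD mouse 2.

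The levels of the genes called for old HFD against young ND lay as follows in the groups not yet given. In young HFD, Serpinf2 had 769, 854 and 990 CPM, C4b 1035, 1431 and 1610 CPM, Masp2 109, 113 and 121 CPM and F5 421, 521 and 579 CPM. Klkb1 had 267, 318 and 408 CPM there. In old ND, Serpinf2 had 779, 1032 and 1121 CPM, C4b 1217, 1639 and 2397 CPM, Masp2 83.4, 108 and 129 CPM and F5 449, 488 and 636 CPM. C6 had 186, 256 and 343 CPM, C8b 203, 270 and 428 CPM and C2 49.5, 64.8 and 81.7 CPM in old ND, and each of these ranges overlapped with that of young ND.

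Other genes of the same pathways, not among the 40, were counted from lists. Of 32 other complement genes 28 were tested, and C1rb, C1s2, C7 and Cr2 had too few counts. On HFD 1 of 28 was higher in young mice (beside 1.91% of all genes tested) and 2 of 28 in old mice (beside 1.37%), and none was lower. The gene called in both was Cfd, which encodes factor D, the protease that cleaves factor B in the alternative pathway.

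Cfd had 0.589, 2.63 and 9.32 CPM in young ND and 29.2, 48.1 and 111 CPM in young HFD, a log2 fold change of 3.95 (adjusted p = 0.000713). In old mice it had 1.69, 2.81 and 3.53 CPM on normal diet and 9.90, 74.2 and 143 CPM on high fat diet, a log2 fold change of 4.73 (adjusted p = 0.000286). The diets did not overlap at either age, and both calls held on leaving out each of the 24 mice in turn. Cfd is also a well-known product of fat cells. The other call in old mice was Cd59a, an inhibitor of the membrane attack complex, at 0.73 (adjusted p = 0.0126), with 59.2, 83.8 and 90.4 CPM in old ND and 77.0, 114 and 194 CPM in old HFD, so that the groups overlapped. Without the 2 outlying mice the count of higher genes was 9 of 28 in young mice and 2 of 28 in old mice, beside 6.9% and 1.16% of all genes tested in that fit. The young count was 2 to 6 without old HFD mice 2 or 5, old ND mice 2, 4, 5 or 6, young HFD mice 2 or 4 or young ND mouse 6.

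Between old ND and young ND, 13 of the 28 other complement genes were higher (beside 7.26% of all genes) and none lower, led by the C1q chains C1qa (3.46, adjusted p = 0.00328), C1qc (3.71, adjusted p = 0.00328) and C1qb (3.63, adjusted p = 0.00436). C1qa had a median of 3.08 CPM in young ND and 12.6 CPM in old ND, and 132 CPM in the highest old ND mouse. The C1q chains and Vsig4 are made by Kupffer cells and stand on the list of Kupffer cell markers as well. Medians of Vsig4 were 1.83 CPM in young ND and 5.68 CPM in old ND, and those of Colec10, a stellate cell collectin, 6.34 and 15 CPM. Without the 2 outlying mice 9 of 28 were higher (beside 5.03%). On high fat diet 0 of 28 were called between old and young mice by edgeR, and 5 at an unadjusted p under 0.05 (beside 21% of all genes). Between old HFD and young ND 16 of 28 were higher (beside 17.3% of all genes), led by Cfd (4.28, adjusted p = 9.74e-05), C1qa (3.54, adjusted p = 0.000659) and Cd59a (0.78, adjusted p = 0.000922).

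Of 22 other coagulation and fibrinolysis genes 16 were tested, and F13a1, Serpina5, Plat, Plaur, A2m and F2rl1 were not, for low counts. In young mice on HFD 3 were higher (beside 1.91% of all genes) and 1 lower (beside 1.59%). Without the 2 outlying mice 6 were higher (beside 6.9%) and 1 lower (beside 3.72%). The count of higher genes was 5 without old ND mouse 4 and 1 without young HFD mice 1, 5 or 6 or young ND mice 2, 3, 4, 5 or 6. The leading genes were Anxa2 (2.71, adjusted p = 0.00573), whose product binds plasminogen on cells, Serpine2 (-1.02, adjusted p = 0.0103) and Plau, which encodes urokinase, an activator of plasminogen (2.48, adjusted p = 0.0349). The call of Plau was lost, with adjusted p from 0.0564 to 0.0925, without young HFD mice 1, 5 or 6 or any 1 of the young ND mice. Serpine2, which encodes a thrombin inhibitor of tissues, had 24.6, 27.2 and 36.2 CPM in young ND and 8.97, 14.5 and 22.3 CPM in young HFD, with no overlap. Plau was scarce, at medians of 0.172 CPM in young ND and 0.825 CPM in young HFD.

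None of the 16 was called between old HFD and old ND, or between old HFD and young HFD, by edgeR, and at an unadjusted p under 0.05 there were 2 (beside 22% of all genes) and 3 (beside 21%). Between old ND and young ND 7 of 16 were higher (beside 7.26% of all genes) and none lower, led by Thbs1 (5.33, adjusted p = 0.00328), Plau (3.06, adjusted p = 0.00497) and Vwf (2.81, adjusted p = 0.00999), all with medians under 2 CPM. The endothelial genes F8 (factor VIII) and Vwf (von Willebrand factor) had medians of 4.57 and 0.260 CPM in young ND and 6.78 and 1.56 CPM in old ND. Without the 2 outlying mice 5 of 16 were higher (beside 5.03%). The count was 4 without old ND mice 2 or 4 or young ND mice 5 or 6, in each case with F8, Tfpi and Kng2 lost. Between old HFD and young ND 8 of 16 were higher (beside 17.3% of all genes), led by Plau (3.93, adjusted p = 0.000275), Anxa2 (2.63, adjusted p = 0.00129) and Thbs1 (4.65, adjusted p = 0.00196). Endothelial markers were also called higher between old HFD and young ND and between old ND and young ND, as given above. Of 3 platelet markers tested, 2 were called higher in each of these comparisons. Their part in these values was not tested.

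Of 9 genes of the vitamin K cycle and of cargo receptors for clotting factors, 2 were called lower between old HFD and young ND, where 30.2% of all genes tested were called (12.9% lower). Ggcx, the carboxylase that vitamin K serves, was at -0.44 (adjusted p = 0.00727), and Furin, a protease of the secretory route, at -0.48 (adjusted p = 0.0313). The call of Ggcx held on leaving out each of the 24 mice in turn, and that of Furin was lost, with adjusted p from 0.0536 to 0.0755, without young ND mice 3 or 5 or old HFD mice 3 or 4, and without both outlying mice (adjusted p = 0.0519).

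Of 15 liver transcription factors, Stat3 alone was called between old ND and young ND (beside 8.5% of all genes) and between old HFD and old ND (beside 3.01%). Stat3 had 81.7, 86.3 and 101 CPM in young ND, 104, 126 and 198 CPM in old ND and 77.4, 97.8 and 109 CPM in old HFD. All old ND mice lay above all young ND mice, and the log2 fold change was 0.64 (adjusted p = 0.00901). It was 0.53 without the 2 outlying mice (adjusted p = 0.0143) and passed on leaving out each of the 24 mice in turn. Against old ND, old HFD was at -0.56 (adjusted p = 0.0363), and at -0.35 without the 2 outlying mice (adjusted p = 0.137). This call was lost, with adjusted p from 0.0518 to 0.133, without old ND mice 1, 2 or 4, old HFD mice 2 or 4, or young HFD mice 1 or 5. The highest level in old ND was again that of mouse 4. Between old HFD and young ND 4 of the 15 were called, beside 30.2% of all genes, with Hnf4a (-0.73, adjusted p = 0.00534) and Foxa1 (-0.99, adjusted p = 0.00883) lower and Onecut2 (0.52, adjusted p = 0.0156) and Cebpb (0.81, adjusted p = 0.0169) higher. The call of Cebpb was lost without old HFD mouse 2 (adjusted p = 0.0540). Hnf4a, a master regulator of hepatocyte genes, had medians of 620 CPM in young ND and 415 CPM in old HFD.

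**Figure D5:**
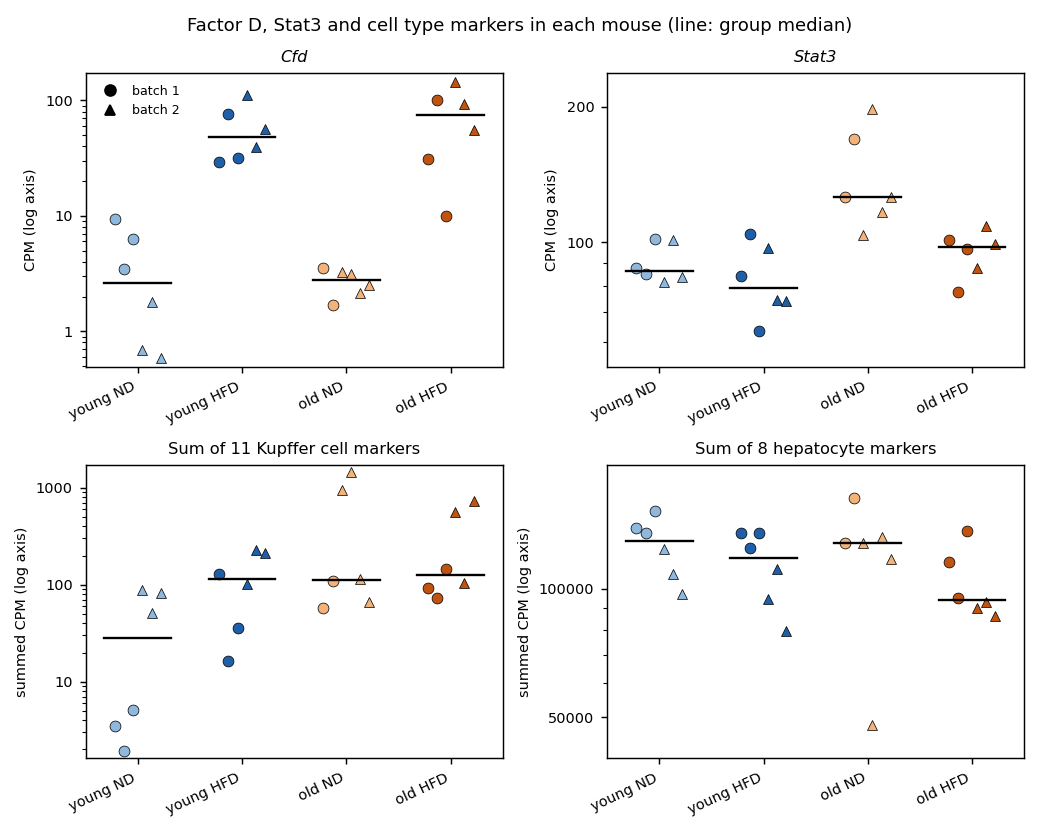
CPM of Cfd and Stat3 and the summed CPM of Kupffer cell and hepatocyte markers in each mouse (log axes), with circles for batch 1, triangles for batch 2 and a line at the group median. Cfd separates the diets at both ages, Stat3 is higher in all old ND mice than in any young ND mouse, and the Kupffer cell sum spans 1.95 to 1448 CPM.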

How the data were processed

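The authors deposited raw counts per gene and FPKM values for each mouse. Per the labels and the methods of the study, reads were checked with FastQC 0.11.8, aligned to mm10 with STAR 2.7.3a in 2 passes and counted with HTSeq 0.11.2, and the authors made the FPKM with CuffLinks and adjusted them between batches with ComBat. The deposited FPKM matched CPM per kilobase of whole gene span (median log2 difference 0.06, SD 0.138, over 7723 genes with at least 50 counts in every mouse) and not of exons (-2.33), so levels between genes were recomputed per kilobase of exon. No column of the authors' own comparisons was used.

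Counts were tested with edgeR 4.0.16 (R 4.3.3): genes were filtered by group with filterByExpr (minimum count 10), scaled by TMM and fitted with group and batch over all 24 mice by the quasi-likelihood method, with Benjamini-Hochberg adjustment over all 13583 genes and a threshold of 0.05. Intervals use 19 residual degrees of freedom. Totals were 9200332 to 22185069 counts per mouse. Mice of a group differed by at least 16.0 in chi-square per degree of freedom, far beyond counting error, so the 6 mice per group limit the precision. The script was checked on simulated counts. Alternatives were other scaling, no filter, no batch term, the replicate number as a block, each batch or only the mice compared, DESeq2 1.42.0, limma 3.58.1 on log2(FPKM + 1) and log2(FPKM + 0.1), and leaving out each mouse. Groups came from the labels.

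The genes and lists were chosen with earlier results of these data known, and 2 genes of the other lists and 1 promoter motif are not reported here. Every one of the 40 genes is named; called genes are given with their fold change, and levels by mouse are given for the 10 called genes with the largest changes, the 3 highest and 3 lowest by FPKM in young ND, and C3. Of each other pathway list, the 3 called genes with the smallest adjusted p are given, and of the markers Alb, Clec4f, Stab2, Ptprc and those that are pathway genes. Figures were drawn with matplotlib 3.10.9.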

Additional observations from a re-analysis of the deposited data

Results flagged for a closer look

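Outlying mice were sought in the 14 genes whose values by mouse are given, in 56 sets of 6 mice, by comparing the gap of the extreme mouse with the range of its group (Dixon's ratio at the 95% level). In 6 sets 1 mouse stood apart, and chance alone marks about 1 in 20 sets. Values are log2 CPM. Fga in young ND was low in mouse 6 at 12.05. Serpinf2 in old ND was low in mouse 1 at 9.61. F5 was high in old ND mouse 2 at 9.31 and low in old HFD mouse 2 at 7.75. Masp1 was low in old HFD mouse 2 at 5.73. C3 was high in old ND mouse 4 at 13.87. Of these, old ND mouse 4 and old HFD mouse 2 were the mice that also stood apart in marker sums.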

How the results depend on the processing

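Of the 40 genes, 2 were called for young HFD against young ND, 2 for old HFD against old ND, 1 for each age comparison, 8 for old HFD against young ND and 0 for the interaction. In the order of the first 5 comparisons, counts that moved by over 1.5 times were as follows. Without a batch term they were 1, 1 and, for old HFD against young ND, 4. With the replicate block in place of batch they were 1 and 0 for the diet comparisons, with the calls of C6 (adjusted p = 0.0540), Klkb1 (0.0868), Fga (0.0555) and, in old HFD against young ND, F5 (0.0697) lost and no other call of the 40 genes changed. Same-numbered mice are different mice, and the deviations of the 36 pairs correlated by 0.182 on average (-0.32 to 0.551), or by -0.00199 after batch means were removed. The latter mean gave no sign that the numbers pair the mice. It cannot exclude a pairing, since each batch mean came from few mice. With only the mice compared they were 8 and 0 for the diets. With limma on FPKM, both pseudocounts gave 1 and 1 for the diets, and no filter gave 0, 0, 0 for the first 3 and 3 for old HFD against young ND. Each batch alone gave 0 in every comparison, except 1 for old HFD against young ND in batch 1. DESeq2 gave 4 for the old diet, 2 for age on normal diet and 5 for age on high fat diet, where it called 8.37%, 12.3% and 6.32% of all genes. Without the count filter age on high fat diet gave 2 and old HFD against young ND 5. Without old ND mouse 4 and old HFD mouse 2, chosen after their values were seen, counts were 1 for the old diet, 2 for age on high fat diet and 5 for old HFD against young ND, beside 2.61%, 1.46% and 30.2% of all genes. Leaving out each mouse gave 0 to 4, 0 to 3, 1 to 2, 0 to 3, 5 to 12 and 0 to 0, and the young diet count was 0 without young HFD mouse 5 or young ND mouse 2. Fewer mice enter the fits on 1 batch, and for the other settings the cause was not tested. Among values at an unadjusted p under 0.05 in their comparison, and those of C3 and fibrinogen for both diets and for age on normal diet, directions turned only in batch 2 alone for old HFD against old ND, for C6 (0.0339) and C8a (0.0167). Smaller values turned within batches too, such as F11 in batch 1 (-0.54). With other scaling the median of all genes moved by at most 0.06.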
